A study of Mus musculus with 2 samples.

Results

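The 9 genes described here encode receptors for adrenaline and noradrenaline (Adra1a, Adra2a, Adra2b, Adra2c, Adrb1), for dopamine (Drd1, Drd2) and for acetylcholine (the muscarinic receptors Chrm3 and Chrm4). They were taken by name from the 38924 genes listed, after the transcript values of each gene had been summed. Of the 9, 4 had 100 or more counts over both libraries, 2 had between 20 and 99 counts, and 3 had under 20. RNA came from pancreatic islets, the hormone-secreting cell clusters of the pancreas, of male mice of 2 inbred strains at 10 weeks of age. One strain was C57BL/6J (B6), the source of the reference assembly, and the other CAST/EiJ (CAST), derived from wild Mus musculus castaneus. No treatment is given for either, both ate standard chow, and their islets were held in buffer with 16.7 mM glucose during isolation. Islets of 2 mice per strain were pooled and 250 of them gave 1 library, so there is no replicate of either strain and no difference was tested.

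These receptors sit in the cell membrane and pass the signal of an amine to a G protein. Receptors that couple to Gi and Go lower cyclic AMP and open potassium channels, those that couple to the Gq family release calcium through phospholipase C, and those that couple to Gs raise cyclic AMP. In islets, noradrenaline from sympathetic nerves inhibits insulin secretion through Gi-coupled adrenoceptors of beta cells. Acetylcholine strengthens glucose-stimulated insulin secretion through Gq-coupled muscarinic receptors, and dopamine, which beta cells can make from its precursor, can act back on them.

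The members share a coding stretch that identifies them as amine receptors, and it is shown because each value below rests on reads being told apart between these related genes. Each window starts with the aspartate codon that contacts the amine of the ligand and ends with the aspartate, arginine and tyrosine codons at the inner end of the third membrane helix, both in capitals. The sequences are those of GENCODE M21 transcripts on GRCm38, read 5′ to 3′ on the coding strand. The Drd2 window crosses an intron, so that its 60 bases span 958 bases of the genome.
Adra2a, chr19:54046596-54046655, plus strand: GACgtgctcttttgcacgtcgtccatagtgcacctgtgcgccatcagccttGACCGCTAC
Adra2b, chr2:127363853-127363912, plus strand: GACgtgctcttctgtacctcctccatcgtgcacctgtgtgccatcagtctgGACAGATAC
Adra2c, chr5:35280276-35280335, plus strand: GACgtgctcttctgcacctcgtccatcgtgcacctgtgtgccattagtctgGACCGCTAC
Drd2, chr9:49399790-49400747, plus strand: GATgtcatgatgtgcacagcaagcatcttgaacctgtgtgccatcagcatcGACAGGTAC
Chrm4, chr2:91927579-91927638, plus strand: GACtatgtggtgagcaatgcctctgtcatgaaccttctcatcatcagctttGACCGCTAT
Chrm3, chr13:9878501-9878560, minus strand: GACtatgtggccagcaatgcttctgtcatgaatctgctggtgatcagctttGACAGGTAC
Adra1a, chr14:66637893-66637952, plus strand: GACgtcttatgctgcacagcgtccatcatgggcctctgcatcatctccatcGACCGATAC
Adrb1, chr19:56722783-56722842, plus strand: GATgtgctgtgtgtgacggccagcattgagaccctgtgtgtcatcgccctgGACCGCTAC
Drd1, chr13:54053831-54053890, minus strand: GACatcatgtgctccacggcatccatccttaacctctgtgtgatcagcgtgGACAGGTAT

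Over the 36 pairs of these windows, between 27 and 55 of the 60 bases were identical, with a median of 39. The closest pair was Adra2b and Adra2c with 55, followed by Adra2a and Adra2c with 53, and Chrm3 and Chrm4 shared 49. No gene with a near-identical transcript was found for any of the 9. No exon of those M21 transcripts that the count data list overlapped an exon of another gene. Exons of other M21 transcripts were not checked, such as those outside chr13:9877229-9878998 for Chrm3, whose M21 gene runs from 9875486 to 10360847. Both checks used M21 models, so the transcript that held all Chrm4 counts, which has no M21 entry, was not covered. Reads from CAST carry strain variants against the B6 reference, and the effect of these on the counts was not tested.

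The annotation used for counting also bears on the levels. Chrm3 was counted on a single transcript of 1 exon and 1770 bases, of which 1767 are coding, so its level per length rests on the coding exon alone. All reads of Chrm4 went to a transcript with no entry in M21, whose implied length of 2760 bases in B6 exceeds the 1440 bases of the coding model that M21 holds. The implied lengths of Adra2a (3821 bases against 4832 in M21) and Adrb1 (2476 against 2952) were shorter than the M21 models. RefSeq (GRCm38.p6) places the start of both muscarinic genes upstream of these coding models, and the sequence before that start is shown to mark where transcription of the 2 muscarinic members begins, without any base that M21 counts as exon. Capitals mark matches, on either strand, to a GC box (GGGCGG) or a CCAAT box (CCAAT).
Chrm4, chr2:91921939-91922188, plus strand: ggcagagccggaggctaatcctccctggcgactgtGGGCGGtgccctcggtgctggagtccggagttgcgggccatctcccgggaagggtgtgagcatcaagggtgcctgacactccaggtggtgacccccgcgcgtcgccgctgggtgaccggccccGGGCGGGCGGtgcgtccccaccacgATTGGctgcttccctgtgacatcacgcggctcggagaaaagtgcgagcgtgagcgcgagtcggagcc
Chrm3, chr13:10360848-10361053, minus strand: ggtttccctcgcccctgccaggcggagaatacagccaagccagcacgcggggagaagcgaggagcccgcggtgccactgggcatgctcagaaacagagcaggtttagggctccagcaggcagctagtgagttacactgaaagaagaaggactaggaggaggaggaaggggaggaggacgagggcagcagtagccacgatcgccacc

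In the full RefSeq windows of 300 bases (250 before the start and 50 after it), Chrm4 had 4 GC boxes, overlapping ones counted each and 1 of them beyond the bases shown, and 1 CCAAT box, and Chrm3 had neither. Chrm4 was also richer in CG dinucleotides, with 30 against 11 in Chrm3 and a median of 7 over all promoter windows. A GC box was found in 35.9% and a CCAAT box in 37.4% of all 32544 windows. RefSeq windows were found for 8 of the 9 members. The window of Adra2a was the only one of these with a TATA box (TATAAA, found in 13.6% of all windows).

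Adra2a stood far above every other member in both libraries. Levels are given in TPM, a share of all transcripts scaled to 1000000, which corrects for transcript length and so can be compared between genes. Adra2a, the inhibitory adrenoceptor of beta cells, was at a TPM of 66.3 in B6 and 46.0 in CAST, Chrm3 at 18.3 and 9.86, and Chrm4 at 4.03 and 3.12. These 3 held the same places in both libraries, and the neighbours among them differed by 3.62- and 4.55-fold in B6 and by 4.67- and 3.16-fold in CAST. Adrb1 came next in both, at 1.08 in B6 and 0.412 in CAST, so that 4 members reached a TPM of 1 in B6 and 3 in CAST. The other 5 members lay at or below 0.103 in B6 and 0.188 in CAST.

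**Figure D1:**
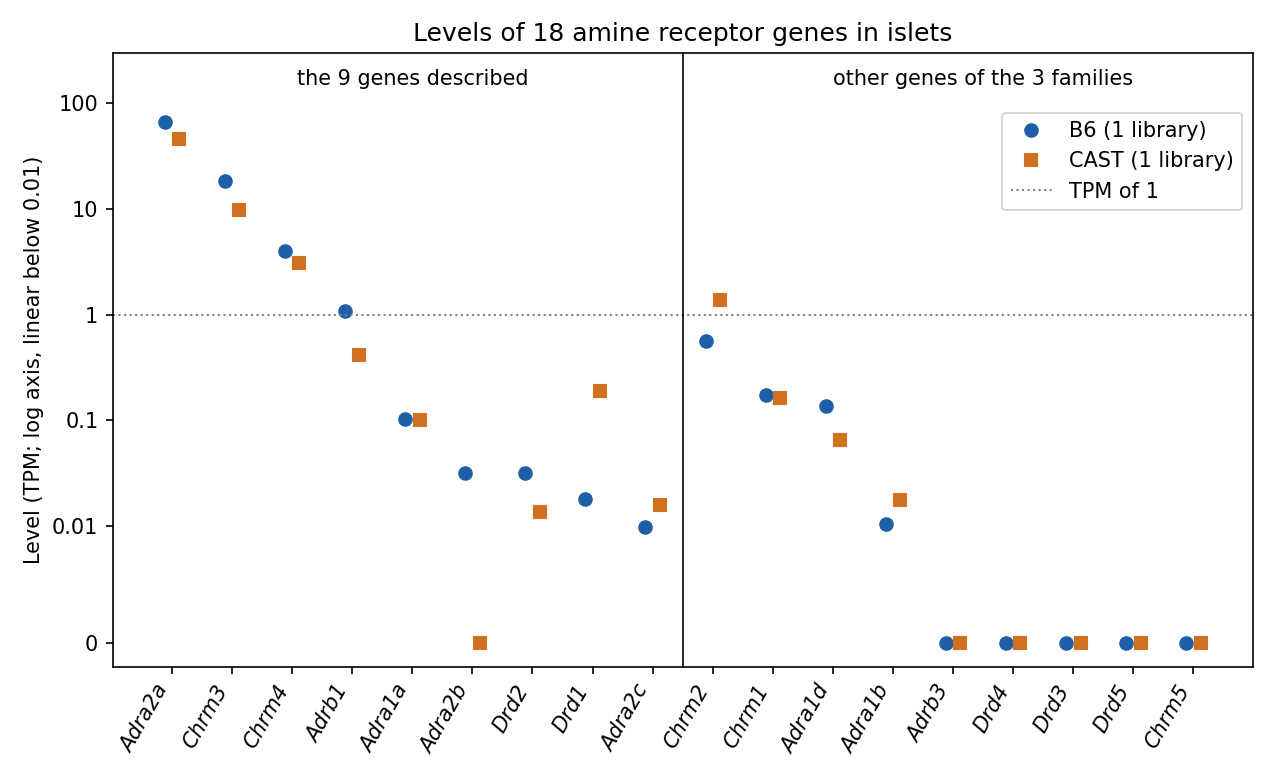
Level of each receptor gene in the B6 library (circles) and the CAST library (squares), in TPM on a log axis that is linear below 0.01, with the 9 genes described on the left and 9 other genes of the 3 families on the right. Adra2a, Chrm3 and Chrm4 are the highest in both libraries, and Adra2b is at 0 in CAST.

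The order of the low members could not be resolved in B6. There Adra2b, Drd2, Drd1 and Adra2c had 8, 3, 4 and 2 counts, and their TPM intervals, which like every interval here are 95% and cover counting error only, all overlapped. In CAST, Drd1 at a TPM of 0.188 (0.145 to 0.239) lay above Adra1a at 0.10 (0.0719 to 0.136), with Adra2c and Drd2 below both. Their intervals, 0.00518 to 0.0372 and 0.00164 to 0.0489, overlapped each other.

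Among the members that couple to Gi and Go, Adra2a (ENSMUSG00000033717, chr19:54044151-54048982, plus strand, 1 exon) had 15979 counts in B6 and 17211 in CAST. After scaling for library size and composition (TMM factors) this was slightly more in B6, at 198 CPM (scaled counts per 1000000) against 174. The log2 ratio of CAST over B6 was -0.18, with an interval of -0.21 to -0.15. Chrm4 (ENSMUSG00000040495, chr2:91927249-91928688, plus strand), a muscarinic receptor that lowers cyclic AMP, had 701 and 843 counts, or 8.67 and 8.53 CPM. Its log2 ratio of -0.02 had an interval on both sides of 0 (-0.17 to 0.12). Both genes were thus close to equal in these 2 libraries on the scaled counts.

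By TPM the same 2 genes were further apart, with log2 ratios after adding 1 of -0.52 for Adra2a and -0.29 for Chrm4. On that scale the median of all 14768 genes with 100 or more counts was itself -0.26, against 0.02 on the scaled counts. Relative to that median, Adra2a was lower in CAST on both scales and Chrm4 lay close to it on both.

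The remaining Gi-coupled members were at the edge of detection. Adra2b (ENSMUSG00000058620, chr2:127363208-127367221, plus strand), an adrenoceptor of blood vessels and brain, had 8 counts in B6 and 0 in CAST. Against the floor of 3 counts that a count of 0 allows per library, and with the 8 counts taken as they are, that is at least 3.26-fold higher in B6. The exact Poisson intervals of the counts, before scaling for depth, were 3.45 to 15.8 for the 8 and 0 to 3.69 for the 0, so the fold is poorly bounded. Adra2c (ENSMUSG00000045318, chr5:35278319-35281763, plus strand), which restrains noradrenaline release from nerve endings, had 2 and 5 counts, a log2 ratio of 1.03 (-1.58 to 4.43) when, as for each gene under 20 counts, nothing was added to the counts. Drd2 (ENSMUSG00000032259, chr9:49340627-49408177, plus strand), the main inhibitory dopamine receptor of brain and pituitary, had 3 and 2 counts (log2 -0.87, -4.46 to 2.25, also with nothing added). No strain difference was detectable for Adra2c and Drd2 at this depth, although the libraries held 76600903 and 104324631 counts.

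Of the members that couple to the Gq family, Chrm3 (ENSMUSG00000046159, chr13:9875486-10360847, minus strand), the muscarinic receptor through which acetylcholine acts on beta cells, was the better measured. It had 2005 counts in B6 and 1676 in CAST, although the CAST library was the deeper one. The scaled values were 24.8 and 17 CPM, 1.46-fold higher in B6 (log2 -0.55, -0.64 to -0.45). Adra1a (ENSMUSG00000045875, chr14:66635251-66771168, plus strand), an adrenoceptor of smooth muscle, heart and liver, had 27 and 41 counts (log2 0.31, -0.42 to 1.07). Of its 5 listed transcripts, Adra1a-203 held 77.5% of its TPM in B6 and 79.4% in CAST, the same main transcript in both libraries.

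Of the members that couple to Gs, Adrb1 (ENSMUSG00000035283, chr19:56722199-56733113, plus strand), the adrenoceptor best known from heart muscle, had 168 counts in B6 and 100 in CAST. Scaled, this was 2.08 and 1.01 CPM, 2.05-fold higher in B6. The interval of its log2 ratio of -1.03 ran from -1.41 to -0.67 and so lay on both sides of the 2-fold line. Adrb1 was the only 1 of the 4 members with 100 or more counts that reached 2-fold in either direction, and 0 of the 4 reached it in CAST. Of all genes with 100 or more counts, 5.99% were 2-fold or more higher in B6, 7.18% in CAST and 13.2% in either. Among genes with 100 to 500 counts, where Adrb1 falls, the shares were 16.4% for B6 and 17.9% for CAST, so a ratio of this size was common at its depth. With 1 added to TPM its log2 ratio was -0.56, and with 5 counts added in place of 0.5 it no longer reached 2-fold.

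Drd1 (ENSMUSG00000021478, chr13:54051183-54055705, minus strand), the Gs-coupled dopamine receptor of the striatum, went the other way. It had 4 counts in B6 and 65 in CAST, or 0.0495 and 0.658 CPM. That is a 12.1-fold higher value in CAST (log2 3.59), with a wide interval of 2.31 to 5.65. The size depends on the scale: the log2 ratio was 2.76 with 5 counts added and 0.22, under 2-fold, by TPM with 1 added. Its only listed transcript was Drd1-201, of 2 exons. The gene fell short of 100 counts, and of the genes with 20 to 99 counts 20.8% were 2-fold or more higher in CAST and 20.6% in B6. Of the 6 members with 20 or more counts, 1 reached 2-fold in each direction, where the shares of all such genes were 9.17% for CAST, 8.12% for B6 and 17.3% for either. Even in CAST its TPM of 0.188 was 2.20-fold below that of Adrb1.

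**Figure D2:**
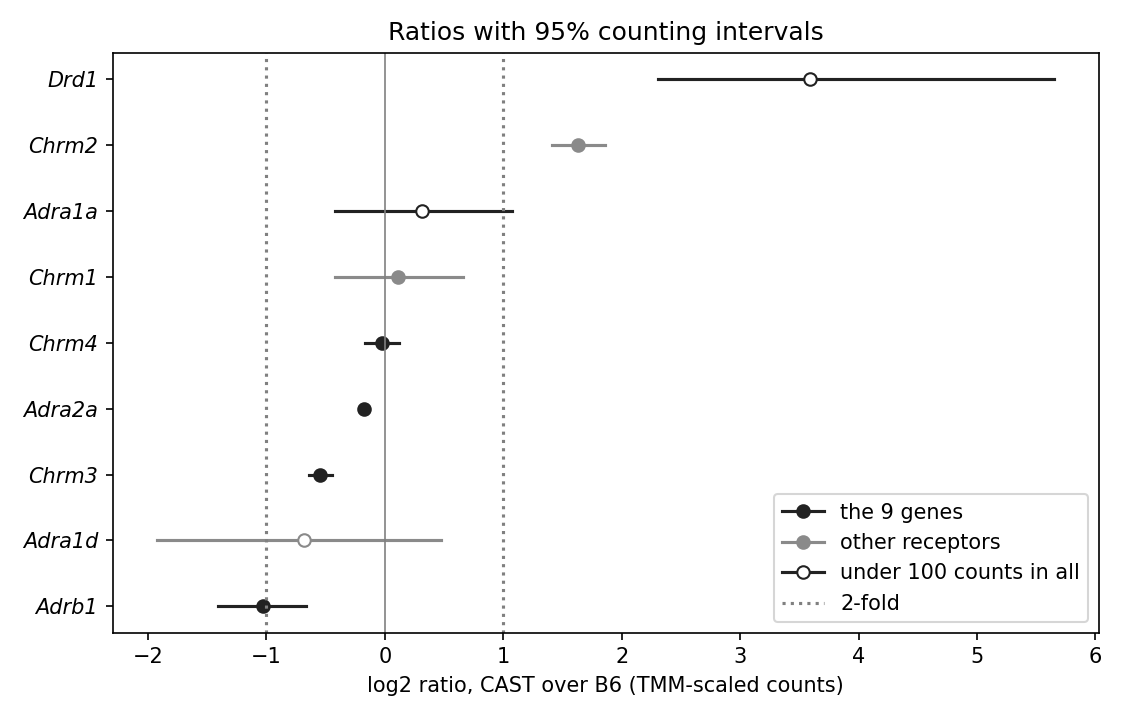
Log2 ratio of CAST over B6 on TMM-scaled counts for the receptor genes with 20 or more counts in all, with 95% counting intervals as lines. Black marks the 9 genes described, grey the other receptors, open circles the genes with under 100 counts, and dotted lines 2-fold. Drd1 and Chrm2 lie beyond 2-fold higher in CAST, and the interval of Adrb1 crosses the 2-fold line.

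Over the 4 members with 100 or more counts the median log2 ratio was -0.36, beside 0.02 for all genes. All 4 were below 0 on the scaled counts, from -1.03 (Adrb1) to -0.02 (Chrm4). The list is too short and its members too unequal in depth to read more from this median: with the 2 members of 20 to 99 counts added it was -0.10.

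Of 9 other genes of the 3 families, 5 gave no counts. Adrb3, Drd3, Drd4, Drd5 and Chrm5 had 0 counts in both libraries, which allows up to 3 counts in each (the floor used throughout). Adra1b had 2 and 3 counts and Adra1d 16 and 12. Chrm1, the muscarinic receptor of cortex and exocrine glands, had 53 and 70 (log2 0.11, -0.42 to 0.66).

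Of these 9 other genes 2, Chrm1 and Chrm2, had 100 or more counts. Beside 7.18% of all genes with 100 or more counts, 1 of these 2 was at least 2-fold higher in CAST. This was Chrm2, the Gi-coupled muscarinic receptor that slows the heart. It had 203 counts in B6 and 770 in CAST, 3.10-fold higher (log2 1.63, 1.41 to 1.86), and its TPM went from 0.560 to 1.37. Its exons overlap an antisense gene, 9330158H04Rik, to which 11 and 40 counts were assigned, and with the strand setting not stated the reads of the pair cannot be told apart. By TPM with 1 added its log2 ratio was 0.60, below 2-fold. Within the muscarinic family the scaled count of Chrm3 was thus lower in CAST, that of Chrm2 higher, and that of Chrm4 close to equal.

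Summed by the G protein they mainly couple to, Gi-coupled receptors stood well above Gq-coupled ones in both strains. The 8 Gi-coupled genes held a TPM of 71.0 in B6 and 50.5 in CAST, which was 78.2% and 82.4% of the TPM summed over the 18 receptor genes described here. Adra2a alone made up 73.0% and 75.0% of that sum. The 6 Gq-coupled genes held 18.7 and 10.2, almost all of it Chrm3. On scaled counts the Gq class was lower in CAST (log2 -0.51, -0.60 to -0.42) and the Gi class nearly level (-0.13, -0.16 to -0.10).

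**Figure D3:**
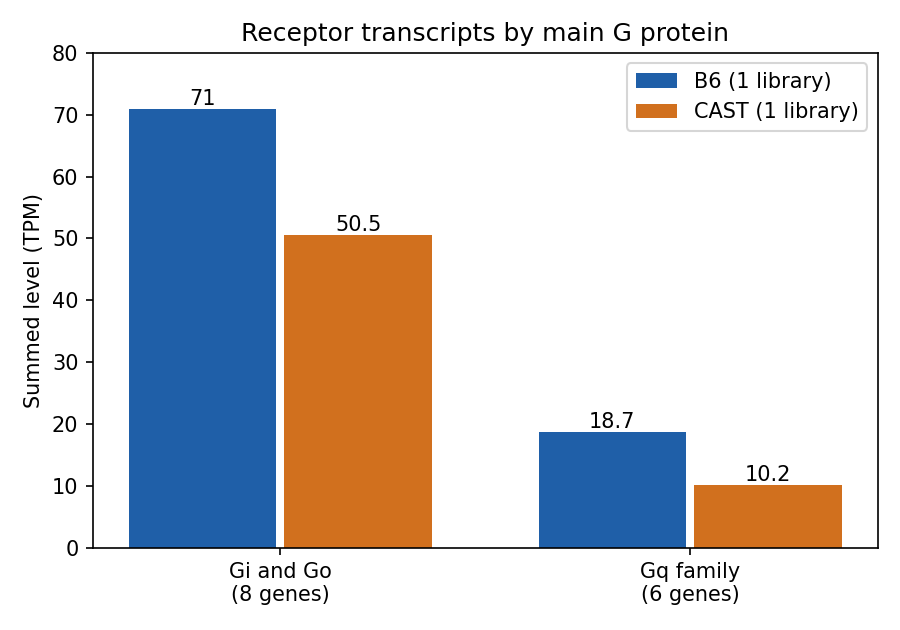
Summed level in TPM of the 8 receptor genes that mainly couple to Gi and Go and the 6 that couple to the Gq family, in the B6 library and the CAST library, on an axis that starts at 0. Gi-coupled receptors hold 71.0 and 50.5 and Gq-coupled ones 18.7 and 10.2.

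Beside the lists that follow, 7.18% of all genes with 100 or more counts were 2-fold or more higher in CAST and 5.99% in B6. At 100 to 500 counts, where Gna14, Rgs8, Rgs14, Adcy1 and Adcy2 fall, the shares were 17.9% and 16.4%. No such shares were taken under total-count scaling or by TPM with 1 added, where the medians of all genes were -0.14 and -0.26. The G proteins that these receptors use were abundant. Gnai2 was the highest of the 5 Gi and Go alpha subunit genes, at a TPM of 226 in B6 and 189 in CAST, and Gnao1 the next at 159 and 96.5. None of the 5 reached 2-fold, and they ranged from Gnai1 (log2 -0.34) and Gnao1 (-0.32) to Gnai2 (0.09) and Gnai3 (0.82, 8504 and 18387 counts), with a median of -0.21. Of the 6 alpha subunits of the Gs and Gq families, Gnas, the Gs gene, was at a TPM of 960 and 865. Of the 5 with 100 or more counts, Gna14, a Gq family member, was the 1 at least 2-fold higher in CAST. It had 35 and 94 counts (log2 1.13, 0.56 to 1.74, and 0.14 by TPM with 1 added). Gnaq (0.24), Gnas (0.17) and Gnal (-0.07) did not reach 2-fold. The exons of Gnal (620 and 720 counts) overlap the antisense gene Mppe1 (1040 and 1370 counts), and the reads of this pair cannot be told apart.

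The beta and gamma subunits, which open potassium channels and restrain cyclases, were level as a group, with a median of 0.04 over 12 of 14 genes that fell below 0 under total-count scaling and by TPM. Gng12 was the highest at a TPM of 199 and 154. Gng10 and Gng11 were at least 2-fold higher in CAST, with 1205 and 3097 counts (log2 1.07, with a near-identical copy that held 0 and 15) and 303 and 823 counts (1.15), and Gng2 and Gng4 were the lowest at -0.62 and -0.13. By TPM with 1 added, and under total-count scaling, 0 of the 12 reached 2-fold.

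Genes that end receptor signalling came next. Of the 7 kinases and arrestins, which switch off and internalize occupied receptors, 6 were below 0 and none reached 2-fold, with a median of -0.24. Arrb2, an arrestin gene, was 1.66-fold higher in B6 (2896 and 2133 counts, log2 -0.73, and -1.10 by TPM with 1 added), Grk3 was at -0.39, and Grk2, the kinase of highest TPM (37.4 and 27.9), at -0.05. Grk5 was the highest at 0.06. The 14 RGS genes, which speed up the shutdown of G proteins, had a median of 0.28 that was below 0 by TPM, and 2 of them reached 2-fold with CAST higher and 1 with B6 higher. Under total-count scaling these counts were 1 and 2. By TPM with 1 added they were 0 and 1, the 1 being Rgs11.

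Within the RGS family the abundant members went both ways. Rgs2, which acts on Gq, had the highest TPM in CAST (74.7 in B6 and 101 in CAST, log2 0.80). Rgs11 had the highest in B6 (110 and 45.7, log2 -0.87), and overlaps the antisense gene Arhgdig (690 and 1058 counts). Rgs3 (3583 and 8925 counts, log2 1.03, 0.97 to 1.08) and Rgs14 (31 and 126, log2 1.72) were the 2 at the upper end. Rgs8, with 129 and 41 counts, was 3.81-fold higher in B6 (log2 -1.93, -2.49 to -1.43).

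The medians of both effector enzyme lists were below 0. Of 9 adenylyl cyclase genes, 7 were below 0 and the median was -0.40. Adcy2 (250 and 117 counts, log2 -1.38) and Adcy1 (333 and 157, log2 -1.37) were at least 2-fold higher in B6, Adcy6, the most abundant at a TPM of 34.8 and 20.8, was at -0.40, and Adcy7 and Adcy5 were the highest at 0.03 and 0.94. By TPM with 1 added 0 of the 9 reached 2-fold, with Adcy2 at -0.59 and Adcy1 at -0.34. Under total-count scaling, where the median of all genes was -0.14, 3 of the 9 were 2-fold or more higher in B6. Of the 11 genes of the phospholipase C path on which Chrm3 signals, 9 were below 0 with a median of -0.24. None of the 11 reached 2-fold on the scaled counts, and 3 (Prkca, Itpr3 and Plcb4) were 2-fold or more higher in B6 by TPM with 1 added. Prkca, a protein kinase C gene, was 1.91-fold and Itpr3, a calcium release channel gene, 1.69-fold higher in B6, Prkcb, the gene of highest TPM (29.3 and 16.6), was at -0.47, and Plcb1 (0.25) and Itpr2 (0.27) were the highest.

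The potassium channels that beta and gamma subunits open held the widest difference of these lists. Kcnj5, a channel subunit that pairs with the Kcnj3 product in the atrium of the heart, had 57 B6 counts against 1948 CAST counts. That is 27.8-fold higher in CAST (log2 4.79, 4.43 to 5.21), and its TPM went from 0.199 to 4.39. By TPM with 1 added the log2 ratio was smaller, at 2.17, and still beyond 2-fold. No near-identical copy was found for Kcnj5, and no exon of its transcripts in the count data overlapped an exon of another gene. Kcnj3 was at -0.44 (521 and 468 counts) and Kcnj6 at -0.16 (450 and 493), and Kcnj9 had 11 and 13 counts. By TPM, Kcnj6 led in B6 at 2.81 and Kcnj5 in CAST.

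**Figure D4:**
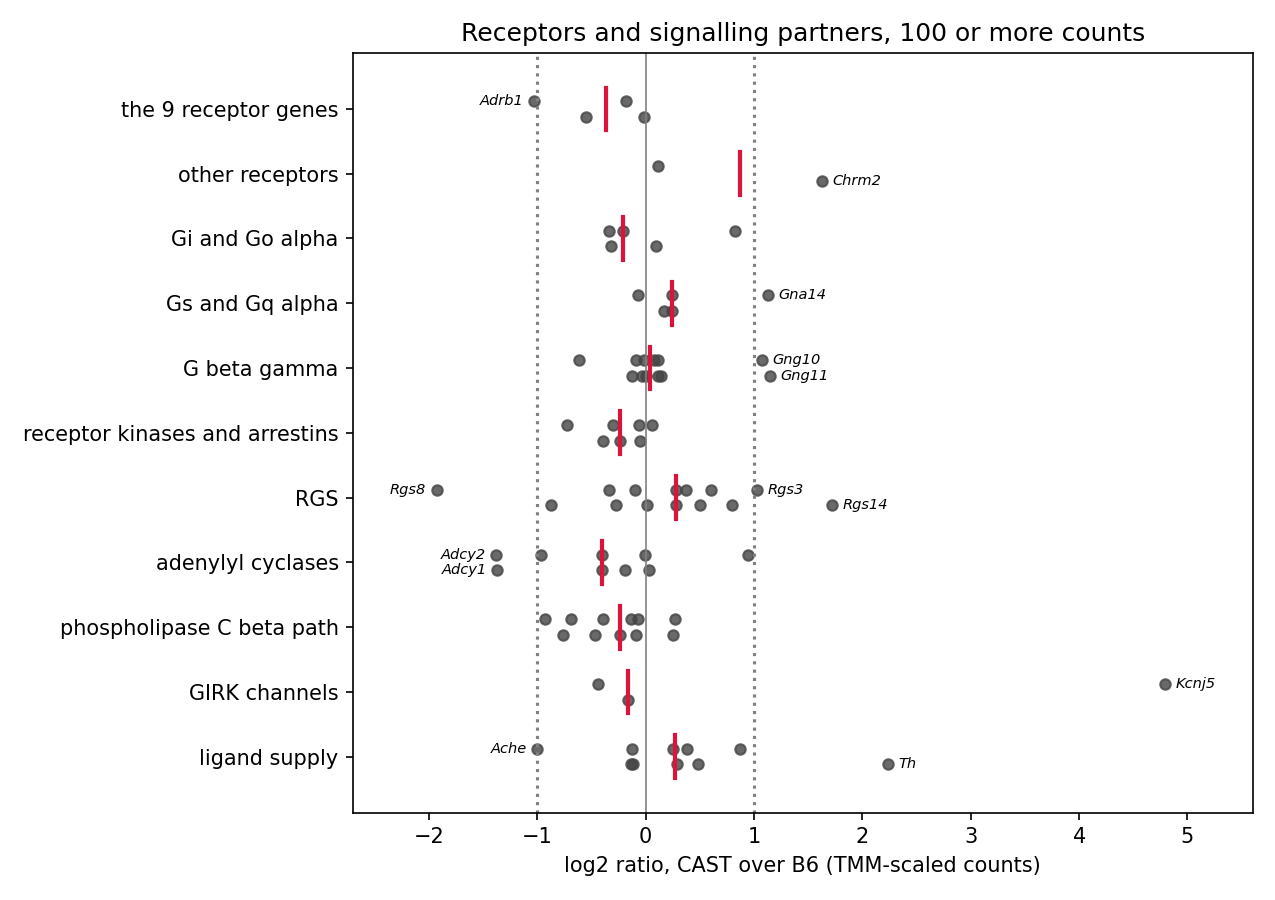
Log2 ratio of CAST over B6 on TMM-scaled counts for each gene with 100 or more counts in the receptor and signalling lists, 1 point per gene, with the median of each list as a red bar and 2-fold as dotted lines. Kcnj5 lies farthest to the right at 4.79, and Adrb1 is the only one of the 4 members plotted that reaches 2-fold.

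Of the 16 genes of ligand supply, 15 had a value and 10 had 100 or more counts, with a median of 0.27 that was below 0 by TPM. Th, the first enzyme of catecholamine synthesis, was 4.74-fold higher in CAST (5304 and 30691 counts, log2 2.24). Ddc, which completes dopamine, had the highest TPM (241 and 260, log2 0.48), whereas Dbh and Pnmt, which make noradrenaline and adrenaline, had 3 and 2 and 0 and 1 counts. The lowest were Ache, which degrades acetylcholine and was 2.01-fold higher in B6 (2717 and 1655 counts), and Slc5a7, the choline transporter gene (-0.14). Bche, another cholinesterase gene, was at 0.87 with 40 and 90 counts. Chat, which makes acetylcholine, had 35 and 33 counts.

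RNA of marker genes of other cell types was also present and its level differed between the libraries. Genes of beta cells dominated both libraries, with Ins2 at 404000 and 478000 TPM in B6 and CAST. The median log2 ratio was 0.11 over 9 beta cell genes (below 0 under total-count scaling and by TPM), -0.55 over 6 alpha cell genes and -0.57 over 6 genes of delta and PP cells, whose summed TPM was 15600 in B6 and 11500 in CAST. Acinar genes were higher in CAST in 10 of 10 cases (median 1.76, summed TPM 5090 and 15300), as were 7 of 7 fibroblast genes (1.28, 22.8 and 47.5). Genes of Schwann cells and neurons had a median of 0.11 over 10 genes (summed TPM 19.1 and 13.9) and those of pericytes and smooth muscle 0.21 over 6 (52.7 and 44.2). No marker of these lists was at 0 counts in both libraries. In whole islets, fewer cells of a type and less RNA per cell cannot be told apart, and the part of these cells in the values of Chrm3, Adrb1, Drd1, Chrm2 and Kcnj5 was not tested.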

How the data were processed

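RNA of 2 pooled-islet libraries was measured, 1 per strain. The deposited expected counts were made by the authors with RSEM, which divides reads shared by several transcripts, on GRCm38, per the submitters' processing notes. The deposited fraction per transcript sums to 1 in each library and, multiplied by 1000000, was read as TPM. Count divided by fraction followed transcript length (rank correlation 0.962 and 0.965). Not given in the sources used here are the aligner, versions, strand setting and annotation release, so reads of antisense genes cannot be told apart.

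Counts were summed per gene and rounded. Symbols and positions came from GENCODE M21 (37607 of 38924 IDs matched), promoter windows from RefSeq. Totals were 76600903 (B6) and 104324631 (CAST), with edgeR 4.0.16 TMM factors of 1.056 and 0.947. Log2 ratios are of scaled counts with 0.5 added, except that genes under 20 counts are given with nothing added when shown singly. Intervals have nothing added. Calls needed 100 counts and 2-fold. Intervals are exact (95%, Clopper-Pearson for ratios, Poisson for counts). Like the floor (3 counts in a library, below the 3.69 that ends the Poisson interval of 0) they cover counting error alone, as reads without molecular identifiers can repeat a molecule. The implied length is count over fraction, set to transcript length by the median of transcripts with 1000 or more counts. Copies were genes whose longest transcript aligned (minimap2 2.31) with 95% identity over 200 bases and 50% of the shorter one.

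The members, lists, naming rule and alternatives were chosen with earlier results of these data known. Named were 18 receptor genes (1 result on these families is not reported here) and, per signalling list, the 2 highest and 2 lowest ratios and the highest TPM, with Chat, Dbh, Pnmt, Kcnj9, Plcb4, Gnao1's level and Ins2 added after their values were seen. Marker lists are given by counts, medians and sums, and those of duct, endothelial and leukocyte markers were 0.48, 0.45 and 0.23. Tested on simulated counts that held counting noise alone, and so say nothing of variation between mice, 100% of 50 genes at 2.5-fold and 95.7% of 47 at 0.4 came out 2-fold apart, and 0% of 14598 unchanged ones. Alternatives used DESeq2 1.42.0 (R 4.3.3).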

Additional observations from a re-analysis of the deposited data

How the results depend on the processing

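Under total-count scaling the median log2 ratio of the members was -0.52, under total counts without hormone genes and acinar markers -0.43, and by TPM with 1 added -0.54, where the medians of all genes were -0.14, -0.05 and -0.26. It was -0.10 with a filter of 20 counts and -0.18 with no count filter, which bring in 2 and 5 more members. The 1 member at least 2-fold higher in B6 (Adrb1) became 0 by TPM and with a pseudocount of 5, and with no count filter there were 2 (Adrb1 and Adra2b). In that count 0.5 was added, which kept Adra2c under 2-fold. The 0 members at least 2-fold higher in CAST became 1 (Drd1) with a filter of 20 counts and with none. The 1 other receptor at 2-fold (Chrm2) became 0 by TPM with 1 added. DESeq2 size factors, protein coding transcripts only and copies summed changed none of these counts or the median. Summing copies could not do so, as no receptor gene with counts had a near-identical copy. Of 63 values of single receptor genes under 7 alternatives, 53 stayed within their counting interval and 10 left it, and no gene that was 2-fold apart changed direction. Part of the 53 were bound to stay: summing copies could move none of these genes, and protein coding transcripts only could move Adra1a alone. Adra2a, Chrm3, Chrm4 and Adrb1 were below 0 in all 7, but the interval of the main Chrm4 ratio (-0.17 to 0.12) held 0. Chrm1 changed sign in 2 (to -0.04 and -0.01). The list medians that were above 0 and fell below it by TPM were those of the Gs and Gq, beta and gamma subunit, RGS and ligand supply genes, and of the beta cell, neural, leukocyte and pericyte markers. By TPM the median of all genes moved as well, from 0.02 to -0.26, and the median of each of these lists stayed above it on both scales. The cause of these moves was not tested. No paired analysis was possible because each strain has 1 library. Depth limits Adra2b, Adra2c and Drd2, with at most 8 counts in a library.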

Other observations

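Receptors for other small ligands were taken in lists chosen after the values above had been seen. Of 14 serotonin receptor genes 2 had 100 or more counts. Htr1d, which couples to Gi, had 14 B6 counts against 187 CAST counts (log2 3.41, 2.67 to 4.35), and Htr3a, a serotonin-gated ion channel gene, had 214 and 98 (log2 -1.41, -1.78 to -1.06). By TPM with 1 added the log2 ratios of Htr1d and Htr3a were 0.85 and -0.83, both under 2-fold. Of all genes with 100 to 500 counts, where both fall, 17.9% were 2-fold or more higher in CAST and 16.4% in B6. Htr5b had 1 and 32 counts. Htr2b had 4 and 16 counts, and its exons overlap those of Psmd1 on the opposite strand, a far more abundant gene with 7191 and 12056 counts. At a TPM of 1 or more 1 of the 14 was detected in B6 (Htr3a, 1.65) and 0 in CAST.

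Taar1, the trace amine receptor gene, had a TPM of 7.42 in B6 and 8.52 in CAST (497 and 887 counts, log2 0.55, 0.39 to 0.71), above Chrm4 in both libraries. Hrh2, a histamine receptor gene, had 17 B6 counts and 0 CAST counts, which is at least 6.92-fold higher in B6 against the floor of 3 counts per library with the 17 counts taken as they are (exact Poisson intervals 9.90 to 27.2 and 0 to 3.69). Of the adenosine receptors, Adora1 was at a TPM of 10.3 and 10.5 (log2 0.37), Adora2b at 6.44 and 3.14 (-0.69) and Adora2a at 2.96 and 1.84 (-0.34). Adora3 had 90 and 5 counts and shares sequence with Tmigd3, and with that gene added the log2 ratio was -3.28. The melatonin receptor genes Mtnr1a and Mtnr1b had 2 and 0 counts in B6 and 0 in CAST.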
